A study of Solanum lycopersicum with 12 samples.

Results

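The genes described here encode the enzymes that write and remove chromatin marks in tomato fruit: DNA demethylases, DNA methyltransferases, and the enzymes that acetylate, deacetylate, methylate or demethylate histones. They were measured by RNA sequencing of pericarp, the fleshy fruit wall. The members are DML2 (Solyc10g083630, a DNA demethylase) and every gene whose deposited description names a cytosine-specific or cytosine-5 methyltransferase, DEMETER or ROS1, a histone deacetylase, a histone acetyltransferase, a histone-lysine N-methyltransferase or a lysine-specific demethylase. Of 35882 features in the count table, 176 met this description, and the 103 with at least 10 counts in 3 or more libraries are the members. They comprise 4 DNA demethylases, 10 DNA methyltransferases, 16 histone deacetylase genes, 12 histone acetyltransferase genes, 43 histone-lysine N-methyltransferase genes and 18 lysine-specific demethylases. The other 73 fell below the count minimum, 55 of them without a count in any library, and 56 of the 73 are described as histone-lysine N-methyltransferases. Just inside the minimum stood the histone deacetylase Solyc03g112410, with 10 counts or more in 4 libraries and 93 counts in all, and just outside it the lysine-specific demethylase Solyc02g069740, with 2 such libraries and 67 counts.

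There were 4 groups of 3 libraries: fruit of a mutant named cr at breaker, wild-type (WT) fruit at breaker, cr fruit at mature green and WT fruit at mature green. Breaker, given the number 38 in the labels, is the stage of the first colour change, and mature green, given the number 35, is the full-sized green stage before it. The unit of these numbers, the gene altered in cr, the cultivar and the number of cr lines are not stated in the labels. Nor do they say if replicate libraries came from separate plants; the p-values thus describe library-to-library spread, which could be technical.

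Cytosine methylation in plants is set by several enzyme families. MET1 copies methylation in the CG context at replication, the chromomethylases CMT2 and CMT3 act at CHG and CHH sites in chromatin with methylated histone H3 lysine 9, and the DRM enzymes methylate DNA under the guidance of small RNAs. DNA glycosylases of the DEMETER and ROS1 family cut methylated cytosines out, and in tomato DML2 is the member known to be needed for the loss of methylation at ripening genes. Histone acetylation and methylation at particular lysines mark active or silent genes, and the SUVH enzymes, which methylate H3 lysine 9, tie the histone and the DNA marks together.

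Library totals ran from 17703054 to 19426192 counts, and 19664 genes, all 103 members among them, had enough counts to be tested. The 4 ripening genes used to check stage and tissue, PG2A, E8, PSY1 and EXP1, were called higher at breaker than at mature green in both cr and WT, and lower in cr than in WT for 4 at breaker and for 3 at mature green. On the first principal component of log2 CPM, cr breaker library 1 stood apart at -4.248, with the other cr breaker libraries at 30.44 and 31.9. Results that involve cr breaker library 1 are thus also given without it where they change. The WT breaker libraries lay from 94.88 to 106.2. Mature green libraries lay from -78.67 to -65.16 in cr and from -61.21 to -39.94 in WT. All cr breaker libraries thus lay between WT breaker and mature green. At breaker the 4 ripening genes summed to 7484 to 15238 CPM in cr and 29968 to 31627 CPM in WT. The part of this position in the differences between cr and WT at breaker was not tested. Levels are CPM, read counts scaled to a common library size with TMM factors (trimmed mean of M-values), and a gene is called where the adjusted p of edgeR's quasi-likelihood test, taken over all 19664 genes, is under 0.05. Over all genes tested, the libraries of cr and WT did not overlap in CPM for 38.4% at breaker and 27.2% at mature green. The libraries of the 2 stages did not overlap for 45.1% in cr and 56.1% in WT. Histone genes named for a call between 2 groups had to show no overlap there, so that separation is no further support. In whole tissue, fewer cells of a type and less RNA per cell cannot be told apart.

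The share of members called was below the share of all genes called in each of the 5 comparisons, a description that carries no test over the list. Between breaker and mature green in cr, 12 members were called higher and 9 lower at breaker, 20.4% of the 103, where 28.7% of all genes tested were called. In WT, 22 members were called higher and 22 lower at breaker than at mature green, 42.7% of the members, against 48.3% of all genes. With upper quartile factors in place of TMM the WT split was 11 higher and 27 lower, and with library totals alone it was 8 higher and 32 lower. The median size of the WT stage change, whatever its direction, was 0.31 on the log2 scale over members and 0.41 over all genes, and in cr it was 0.19 over members and 0.29 over all genes.

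Between genotypes, cr exceeded WT at breaker for 9 members and was lower for 5, 13.6% of the members, where 25.0% of all genes were called. At mature green 3 members were called lower in cr than in WT and 0 were called higher, 2.91% of the members against 4.34% of all genes, of which 2.62% were lower and 1.72% higher. DESeq2 called 2 members higher at that stage, and 7 members were higher at an unadjusted p under 0.05 in edgeR. A test of the difference in stage change, cr minus WT, called 8 members higher and 0 lower, 7.77% of the members against 13.1% of all genes, of which 8.53% were higher and 4.62% lower. DESeq2 called 1 lower there, and 3 were lower at an unadjusted p under 0.05. Calls with an absolute log2 fold change of at least 1 came to 3 higher and 1 lower for stage in cr (9.57% of all genes), 5 higher and 7 lower for stage in WT (20.4% of all genes), 2 higher and 2 lower in cr than in WT at breaker (9.66% of all genes) and 2 higher in the difference of stage changes (6.80% of all genes). The median log2 change of the members lay between -0.01 and 0.10 in all 5 comparisons, and that of all genes between -0.01 and 0.03. Counted without cr breaker library 1, the calls were 8 higher and 3 lower in cr than in WT at breaker, 13 higher and 10 lower for the stage change in cr, and 5 higher in the difference of stage changes.

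Of the 103 members, 8 were called higher at breaker in both cr and WT and 9 lower in both, against 2220 and 2033 of the 19664 genes tested. A further 4 were called higher in cr alone, 14 higher in WT alone and 13 lower in WT alone. Over all genes these counts were 706, 2341 and 2794. No member was called in opposite directions, and few genes were: 39 were higher in WT and lower in cr, and 71 the reverse. A call in 1 genotype alone is not a difference in stage change between genotypes, which only the 8 members of the difference test showed.

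**Figure D1:**
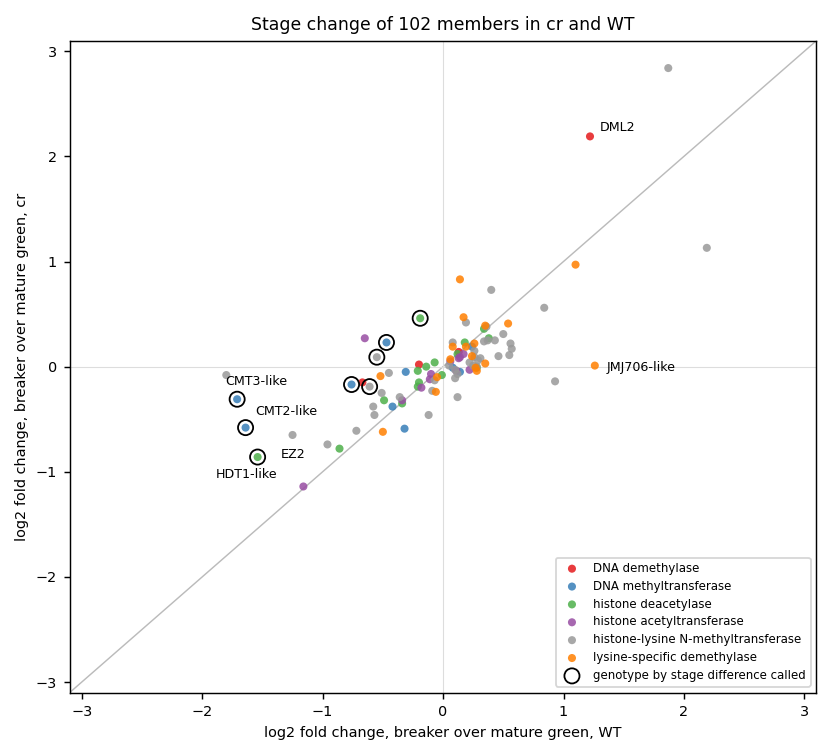
Log2 fold change from mature green to breaker in cr (vertical axis) against that in WT (horizontal axis) for 102 members, coloured by role, with circles around members whose stage change differed between cr and WT at an adjusted p under 0.05. Every circled gene lies above the diagonal, CMT2-like, CMT3-like and HDT1-like genes at the left and DML2 at the upper right without a circle; Solyc04g072310, which had no count in WT breaker fruit, is not drawn.

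**Figure D2:**
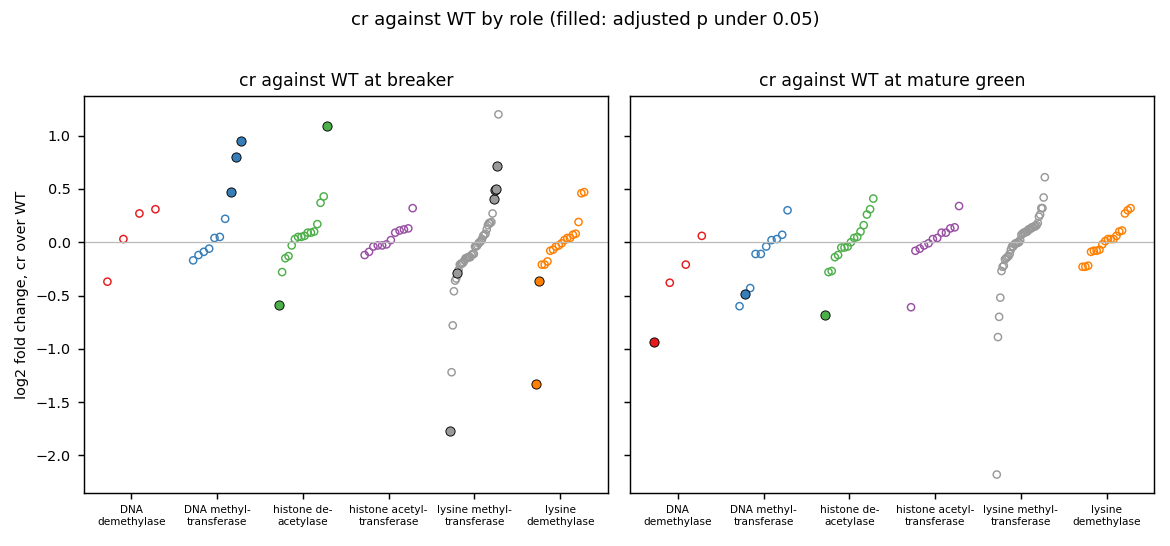
Log2 fold change of cr over WT by role at breaker (left) and at mature green (right), 1 point a gene in rising order within each role, filled where the adjusted p was under 0.05. At breaker 3 DNA methyltransferases are filled above 0 and both filled lysine-specific demethylases lie below it, while at mature green the 3 filled points all lie below 0; Solyc04g072310 is not drawn.

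DML2 was the DNA demethylase that rose at breaker, and by far the most abundant of the 4. Its mean over the 12 libraries was 162 FPKM, a measure per length of transcript, whereas Solyc11g007580 (DNA demethylase 3), Solyc09g009080 (DNA demethylase1) and Solyc03g123440 (DNA demethylase 4) averaged 11.1, 6.12 and 4.79 FPKM. DML2 lies on chromosome 10 of the SL4.0 build, from 62566507 to 62577468 on the minus strand, and the 1 gene that overlaps it on the other strand held 7 counts in all.

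DML2 stood at 1128, 2043 and 1925 CPM in the cr breaker libraries and at 1539, 1641 and 1796 CPM in the WT breaker libraries. In mature green fruit the levels were 411, 418 and 284 CPM in cr and 783, 529 and 828 CPM in WT. Every breaker library was above every mature green library, the cr mature green libraries were all below those of WT, and the genotypes overlapped at breaker. The stage change was 2.19 ± 0.24 (log2, SE) in cr, with an edgeR adjusted p of 4.07e-05, and 1.22 ± 0.23 in WT, with an edgeR adjusted p of 0.000771. At breaker cr and WT differed by 0.03 ± 0.23, with an edgeR adjusted p of 0.93.

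At mature green DML2 was lower in cr than in WT by a log2 fold change of -0.94 ± 0.23, with an edgeR adjusted p of 0.0386. This call did not survive the loss of any 1 mature green library other than WT replicate 2, nor of WT breaker library 1 or 2: the adjusted p was 0.0801, 0.0828 and 0.141 without cr mature green library 1, 2 and 3, 0.105 and 0.156 without WT mature green library 1 and 3, and 0.0529 and 0.0543 without WT breaker library 1 and 2. Over 19 other settings the adjusted p ran from 0.000992 to 0.156 and the fold change from -1.12 to -0.78. The larger stage change in cr than in WT, a difference of 0.98 ± 0.32, had an adjusted p of 0.0651 and was not called. Of 18 other settings 5 called it: DESeq2 (0.0168), upper quartile factors (0.0473), library totals alone (0.0357), and edgeR without cr breaker library 1 (0.015), the lowest of the 3 cr breaker libraries, or without WT mature green library 2 (0.0394). In the other settings the adjusted p reached 0.14.

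**Figure D3:**
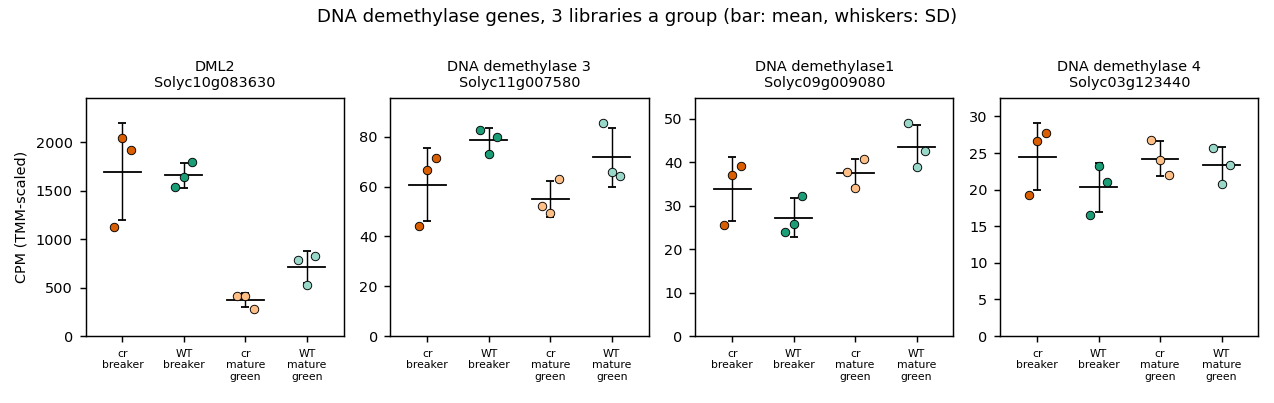
CPM of the 4 DNA demethylase genes in each library, by group (points, 3 libraries a group; bar, mean; whiskers, SD), with the vertical axis starting at 0 in each panel. All DML2 breaker libraries are at 1128 CPM or more and all its mature green libraries at 828 CPM or less, while no library of the other 3 genes exceeds 85.4 CPM.

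Of the other demethylases, Solyc09g009080 fell at breaker in WT. It had 25.5, 37.0 and 39.1 CPM in cr breaker fruit, 23.9, 25.7 and 32.3 CPM in WT breaker fruit, 37.7, 34.2 and 40.8 CPM in cr mature green fruit and 49.0, 39.0 and 42.6 CPM in WT mature green fruit. In WT the stages did not overlap and it fell at breaker by 0.67 on the log2 scale (SE 0.16, edgeR adjusted p 0.00372), and in cr the stages overlapped, with a change of -0.15 ± 0.16 and an edgeR adjusted p of 0.514. The difference between these changes, 0.52 ± 0.23, was not called, with an edgeR adjusted p of 0.153, but without cr breaker library 1 it was 0.69 with an adjusted p of 0.0342, the lowest over its 18 other settings. At breaker cr and WT differed by 0.31 (edgeR adjusted p 0.185), and without that library by 0.48 (edgeR adjusted p 0.0317), which was called. Solyc11g007580 averaged 60.7 ± 14.7 CPM in cr and 78.6 ± 5.0 CPM in WT at breaker, and 55.0 ± 7.22 CPM in cr and 71.8 ± 11.8 CPM in WT at mature green (SD, n = 3). Each cr library was below each WT library of its stage, yet neither difference was called, with edgeR adjusted p of 0.125 at breaker and 0.228 at mature green. Solyc03g123440 was called in no comparison, with group means between 20.3 and 24.5 CPM.

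Of the 10 DNA methyltransferase genes 6 fell at breaker in WT, and 3 were higher in cr than in WT at that stage. The C-5 cytosine-specific DNA methylase domain is annotated for 7 of the 10. In WT 6 were called lower at breaker than at mature green and 0 higher, where 24.9% of all genes were called lower. In cr 3 were called lower and 0 higher, where 13.5% of all genes were called lower. The same counts were obtained in both genotypes with DESeq2, upper quartile factors and library totals alone, and 0 of the 10 were higher at an unadjusted p under 0.05 in edgeR. At breaker cr exceeded WT for 3 and was lower for 0, by edgeR at either an adjusted or an unadjusted p and by DESeq2, where edgeR called 14.0% of all genes higher and 11.0% lower. The count of 3 became 1 without WT breaker library 1 or 2 and 2 without cr breaker library 1 or 3. The stage change differed between cr and WT for 4, all with the more positive change in cr, where 13.1% of all genes were called in either direction. The median log2 stage change of the 10 was -0.11 in cr and -0.37 in WT, and their summed level ran from 376 to 412 CPM in cr and from 355 to 376 CPM in WT at breaker.

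The largest stage changes among the 10 were those of 2 chromomethylase genes in WT. Solyc08g005400 (chromosome 8, 306203 to 318247, plus strand, SL4.0), whose closest match is Arabidopsis CMT2, the enzyme of CHH methylation in heterochromatin, had 11.5, 14.2 and 11.9 CPM in cr breaker fruit and 7.56, 5.72 and 6.18 CPM in WT breaker fruit. Its mature green values were 19.3, 18.9 and 17.9 CPM in cr and 22.1, 21.2 and 17.3 CPM in WT. All cr breaker libraries were above all WT breaker libraries, both stood below mature green fruit of either genotype, and the genotypes overlapped at mature green. It fell at breaker by 0.58 on the log2 scale in cr (SE 0.14, edgeR adjusted p 0.00677) and by 1.64 in WT (SE 0.14, edgeR adjusted p 1.48e-06). The difference between those changes was 1.06 ± 0.20 (edgeR adjusted p 0.00415), and cr exceeded WT at breaker by 0.95 ± 0.14 (edgeR adjusted p 0.000475). These 4 calls held in every other setting tried, the one with an absolute log2 fold change of at least 1 aside.

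Solyc01g006100 (chromosome 1, 766314 to 774402, minus strand, SL4.0), whose closest match is rice CMT3, a chromomethylase of CHG sites, had 4.51, 4.02 and 5.28 CPM in cr breaker fruit and 1.85, 2.63 and 3.45 CPM in WT breaker fruit. At mature green it had 5.38, 6.20 and 5.53 CPM in cr and 7.53, 9.77 and 8.62 CPM in WT. The order of the genotypes turned with stage: every cr library was above every WT library at breaker and below every WT library at mature green. In WT it fell by 1.71 on the log2 scale (SE 0.22, edgeR adjusted p 3.73e-05), and in cr it changed by -0.31 ± 0.21 (edgeR adjusted p 0.301). The difference, 1.40 ± 0.31, was called (edgeR adjusted p 0.0101) and stayed called in all 18 other settings. At breaker the excess of cr over WT was 0.80 ± 0.22 (edgeR adjusted p 0.0197). That call was lost when WT breaker library 1 (0.0748), WT breaker library 2 (0.0559) or cr breaker library 3 (0.06) was left out, within a range of 0.00697 to 0.0748 over 19 settings.

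The third chromomethylase gene, Solyc12g100330, described as cytosine-5 DNA methyltransferase3L, was the most abundant DNA methyltransferase gene at 37.0 FPKM, against 4.17 FPKM for Solyc08g005400 and 2.10 FPKM for Solyc01g006100. It averaged 106 ± 3.6 CPM in cr and 102 ± 12.7 CPM in WT at breaker, and 138 ± 11.4 CPM in cr and 136 ± 17.9 CPM in WT at mature green (SD, n = 3). Its fall at breaker was called in cr (-0.38 ± 0.11, edgeR adjusted p 0.024) and in WT (-0.42 ± 0.11, edgeR adjusted p 0.00832), and the genotypes overlapped at both stages. The call in cr was lost without cr mature green library 2 (0.0521) or 3 (0.105) and without cr breaker library 2 (0.0584) or 3 (0.0842), within a range of 0.00868 to 0.105. The MET1-type gene Solyc11g030600, the maintenance enzyme, fell at breaker by 0.59 on the log2 scale in cr (SE 0.12, edgeR adjusted p 0.00246) and by 0.32 in WT (SE 0.12, edgeR adjusted p 0.0372). Its levels were 84.3, 90.0 and 78.2 CPM in cr and 89.5, 83.8 and 73.0 CPM in WT at breaker. At mature green they were 125, 117 and 137 CPM in cr and 120.1, 94.8 and 92.4 CPM in WT. The fall in WT was lost without WT mature green library 1 (-0.19, adjusted p 0.192), the highest of the WT libraries, and without WT breaker library 2 (0.0701) or 3 (0.132), within a range of 0.00262 to 0.192. The stage changes of Solyc11g030600 did not differ between genotypes by the test (-0.27 ± 0.16, edgeR adjusted p 0.321).

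Of the 5 genes of DRM type, the enzymes guided by small RNA, Solyc04g005250 and Solyc10g078190, both closest to Arabidopsis DRM2, fell at breaker in WT. Solyc04g005250 had 76.3, 74.5 and 59.8 CPM in cr breaker fruit, 45.1, 48.4 and 58.2 CPM in WT breaker fruit, 74.2, 85.1 and 78.0 CPM in cr mature green fruit and 75.7, 90.9 and 90.2 CPM in WT mature green fruit. The WT breaker libraries were below all other libraries, and the cr breaker libraries overlapped those of cr mature green. The change was -0.17 ± 0.12 in cr (edgeR adjusted p 0.317) and -0.76 ± 0.12 in WT (edgeR adjusted p 0.000217), and cr exceeded WT at breaker by 0.47 ± 0.12 (edgeR adjusted p 0.0129). That last call was lost without WT breaker library 1 (0.059) or 2 (0.0508) or cr breaker library 1 (0.0518), within a range of 0.00301 to 0.059.

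Solyc10g078190 had 33.7, 34.8 and 34.3 CPM in cr and 26.7, 27.4 and 34.1 CPM in WT at breaker. In mature green fruit the levels were 26.6, 32.6 and 28.2 CPM in cr and 38.4, 37.6 and 46.6 CPM in WT. The WT libraries were all above the cr libraries at mature green, whereas the genotypes overlapped at breaker. It fell in WT (-0.47 ± 0.12, edgeR adjusted p 0.00517), changed by 0.23 ± 0.12 in cr (edgeR adjusted p 0.159), and the difference of 0.71 ± 0.17 was called (edgeR adjusted p 0.0156) in this and all 18 other settings. At mature green it was 1 of the 3 members called lower in cr than in WT (-0.49 ± 0.12, edgeR adjusted p 0.0377). This call failed without WT mature green library 1 (0.0606) or 3 (0.166), without cr mature green library 1 (0.134), 2 (0.0507) or 3 (0.12), and without cr breaker library 2 (0.0554) or 3 (0.0515), within a range of 0.00691 to 0.166. The other 3 DRM-type genes were called in no comparison. Solyc02g062740 averaged 23.6 FPKM, and the neighbours Solyc05g053260 and Solyc05g053270, 65 bases apart and both closest to DRM3, averaged 8.29 and 8.19 FPKM; reads of this pair may be split between them. Nor was Solyc08g067070 called, whose closest match is the tRNA methyltransferase DNMT2.

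**Figure D4:**
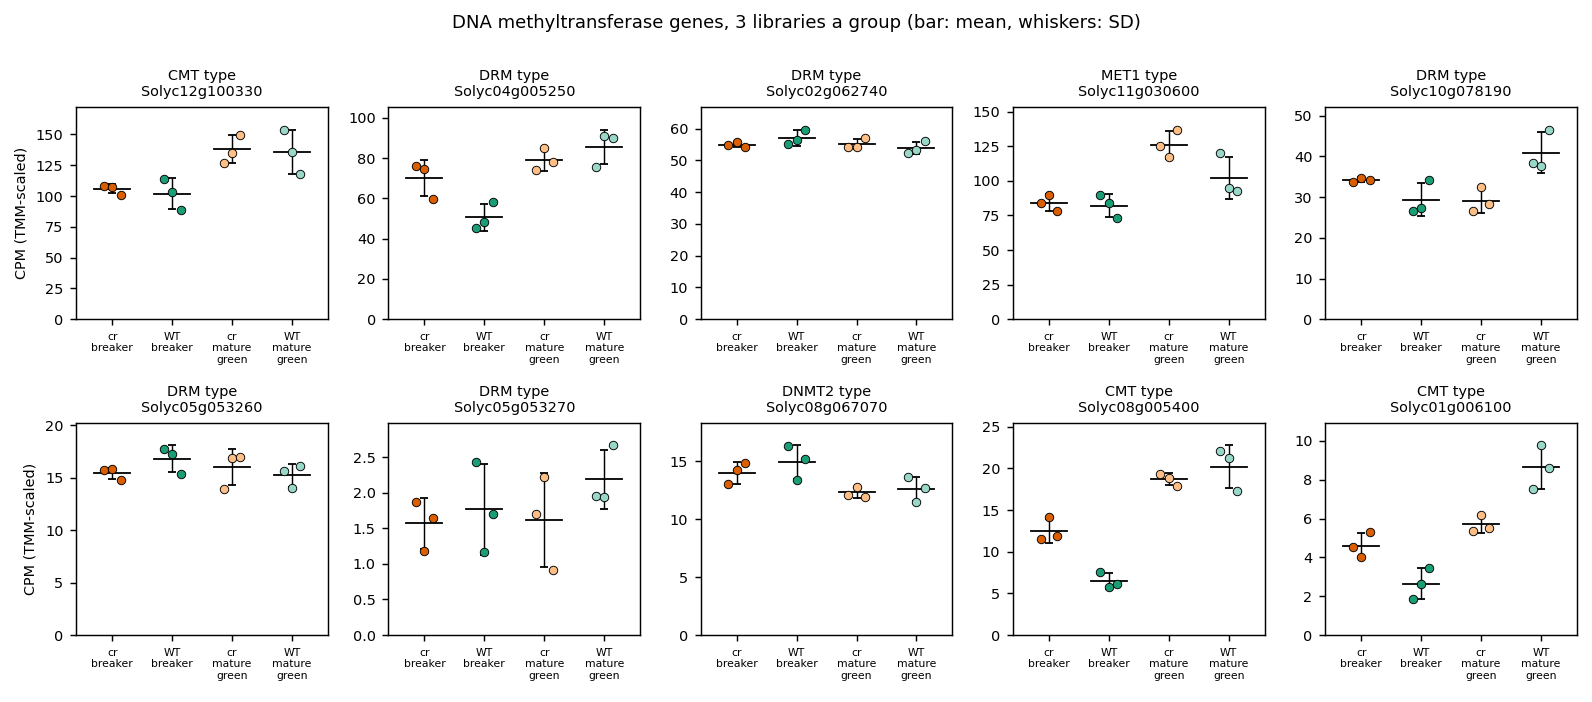
CPM of the 10 DNA methyltransferase genes in each library, by group (points, 3 libraries a group; bar, mean; whiskers, SD), with panels in falling order of FPKM and vertical axes starting at 0. In Solyc04g005250, Solyc08g005400 and Solyc01g006100 the WT breaker libraries are the lowest of the 4 groups, with means of 50.6, 6.49 and 2.64 CPM.

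Genes of DNA replication and core histones, which are high in dividing cells, were counted beside the DNA methyltransferases. Of 140 such genes 54 had no count and 71 were tested. Between cr and WT, 25 were called higher and 6 lower in cr at breaker, where 14.0% of all genes were higher and 11.0% lower, and 1 higher and 7 lower at mature green, where 1.72% and 2.62% were. Between breaker and mature green, 11 were called higher and 4 lower at breaker in cr, against 15.2% and 13.5% of all genes, and 8 higher and 36 lower in WT, against 23.4% and 24.9% of all genes. The difference of stage changes was called higher in 23 and lower in 0, against 8.53% and 4.62% of all genes, while DESeq2 called 26 higher and 1 lower. The count of 25 was between 15 and 26, and that of 11 between 6 and 12, with any 1 library left out. Of the 10 DNA methyltransferases, 3 were called higher and 0 lower in cr than in WT at breaker, and 0 higher and 1 lower at mature green. Over stage, 0 of the 10 were called higher and 3 lower at breaker in cr, and 0 higher and 6 lower in WT. Their difference of stage changes was called higher in 4 and lower in 0. A pericarp sample can carry along seed and xylem, so genes picked by seed and xylem terms in their descriptions were also measured. The seed terms also took in lipid-transfer proteins, such as Solyc10g075100 and Solyc09g018010, so the list is not a measure of seed tissue alone. At mature green the 11S globulin Solyc03g005580 averaged 22.5 CPM in cr and 2.63 CPM in WT. The oleosin Solyc06g060840 went the other way, at 3.89 CPM in cr and 33.0 CPM in WT. The summed level of 253 seed genes ran from 4448 to 6005 CPM in cr and from 3069 to 3384 CPM in WT at breaker, and from 6942 to 8323 CPM in cr and from 6518 to 10269 CPM in WT at mature green. Of these seed genes 93 had no count, and of the 77 tested 15 were higher and 12 lower in cr than in WT at breaker, and 1 higher and 5 lower at mature green. Over stage 15 seed genes were called higher and 14 lower at breaker in cr, and 15 higher and 27 lower in WT, and the difference of stage changes was called higher for 17 and lower for 4. For 89 xylem genes the sums were 644 to 757 CPM in cr and 828 to 950.4 CPM in WT at breaker, and 626 to 682 CPM in cr and 749 to 775 CPM in WT at mature green; 28 had no count, and of the 35 tested 14 were higher and 4 lower in cr than in WT at breaker, and 0 higher and 4 lower at mature green. Of these xylem genes 8 were called higher and 8 lower at breaker in cr, and 5 higher and 18 lower in WT, and the difference of stage changes was called higher for 9 and lower for 0. The part of these genes in the results on DNA methyltransferases, and in those on the histone genes, was not tested.

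Genes of small RNA pathways were counted over 42 genes tested. The list takes in every argonaute, dicer and RNA-dependent RNA polymerase by description, not only the factors that guide the DRM enzymes. At breaker 7 were called higher and 2 lower in cr than in WT, where 14.0% and 11.0% of all genes were. At mature green 4 were called, all higher, with 5 by DESeq2, where edgeR called 1.72% of all genes higher and 2.62% lower. With any 1 library left out, the higher counts ran from 2 to 8 at breaker and from 0 to 4 at mature green. At breaker against mature green, 1 was called higher and 13 lower in cr, where 15.2% and 13.5% of all genes were. In WT 8 were called higher and 13 lower, where 23.4% and 24.9% of all genes were, and library totals alone gave 2 higher and 21 lower. The difference of stage changes was called higher for 2 and lower for 4, against 8.53% and 4.62% of all genes. Solyc08g075940, closest to NRPD2, the shared second subunit of RNA polymerases IV and V, averaged 46.1 CPM in cr and 21.4 CPM in WT at breaker, a difference of 1.10 ± 0.09 (edgeR adjusted p 8.81e-06). Solyc01g060460, closest to the remodeller CLASSY 3, averaged 6.14 CPM at breaker and 1.29 CPM at mature green in cr, and 9.39 CPM at breaker and 2.34 CPM at mature green in WT, called higher at breaker in both. Solyc11g008530 (Dicer-like 2d) averaged 141 CPM in cr and 58.9 CPM in WT at mature green, a difference of 1.26 ± 0.24 (edgeR adjusted p 0.0136), and 46.7 CPM in cr at breaker; its neighbour Solyc11g008540 (Dicer-like 2b) also matches DCL2, so reads may be split between them.

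Among 21 genes for maintenance and reading of DNA methylation, Solyc03g025970, a methyl-CpG-binding protein closest to MBD13, averaged 82.0 CPM in cr and 166 CPM in WT at breaker, against 23.6 CPM in cr and 36.8 CPM in WT at mature green. It was called higher at breaker in cr (1.80 ± 0.17) and in WT (2.18 ± 0.17), and lower in cr than in WT at breaker (-1.02 ± 0.16). Across that list 1 gene was called higher and 2 lower in cr than in WT at breaker, 4 higher and 4 lower at breaker in cr, and 5 higher and 3 lower at breaker in WT. Upper quartile factors gave 2 higher and 4 lower over stage in each genotype. Over all genes, with TMM factors, 14.0% were called higher and 11.0% lower in cr than in WT at breaker. Over stage 15.2% of all genes were higher and 13.5% lower at breaker in cr, and 23.4% higher and 24.9% lower in WT. Of 10 methyl donor genes, the S-adenosylhomocysteine hydrolase Solyc09g092380, which clears the product that inhibits methyltransferases, averaged 4971 CPM at breaker and 1021 CPM at mature green in cr, and 8698 CPM at breaker and 1914 CPM at mature green in WT. The S-adenosylmethionine synthetase Solyc01g101060 went the other way in WT, at 778 CPM at breaker and 2389.5 CPM at mature green (-1.62 ± 0.17, edgeR adjusted p 5.36e-06). In all, 5 methyl donor genes were called higher and 1 lower at breaker in cr, and 3 higher and 3 lower in WT.

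Histone deacetylase genes fall into 9 of the HDA type, 3 of the plant-specific HDT type, 3 complex subunits and 1 that matches only the zinc finger of mouse HDAC6. In cr 2 of the 16 were called higher and 3 lower at breaker than at mature green, and in WT 3 higher and 3 lower. Over all genes 15.2% were called higher and 13.5% lower in cr, and 23.4% higher and 24.9% lower in WT. Library totals alone gave 1 higher and 3 lower in cr and 0 higher and 9 lower in WT. At breaker 1 was higher and 1 lower in cr than in WT, where 14.0% of all genes were higher and 11.0% lower. At mature green 1 was lower, where 2.62% of all genes were. Solyc11g066840 (chromosome 11, 50677874 to 50679576, minus strand, SL4.0), closest to the nucleolar deacetylase HDT1 of Arabidopsis, was the most abundant of all 103 members at 286 FPKM. It had 342, 292 and 254 CPM in cr and 155, 150.0 and 110.3 CPM in WT at breaker. Its mature green values were 557, 511 and 543 CPM in cr and 397, 415 and 397 CPM in WT. At both stages every cr library was above every WT library, and every breaker library was below the mature green libraries of its genotype. It fell at breaker by 0.86 on the log2 scale in cr (SE 0.13, edgeR adjusted p 0.000548) and by 1.54 in WT (SE 0.14, edgeR adjusted p 1.77e-06). cr exceeded WT by 1.09 ± 0.14 at breaker (edgeR adjusted p 0.000124) and by 0.41 ± 0.13 at mature green, where it was not called (edgeR adjusted p 0.106), although 3 of 19 other settings called it, down to 0.017. The calls at breaker and over stage held in all 19 other settings.

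The other HDT genes, Solyc09g009030 and Solyc10g085560, both closest to the HDT1 of wild potato, differed less. Solyc09g009030 fell at breaker in cr (-0.35 ± 0.09, edgeR adjusted p 0.0143) and in WT (-0.34 ± 0.09, edgeR adjusted p 0.00945). In the HDA type, Solyc09g091440, closest to HDA19, a general corepressor deacetylase, averaged 126 ± 4.40 CPM at breaker and 98.6 ± 6.91 CPM at mature green in cr, and 138 ± 7.87 CPM at breaker and 109 ± 4.17 CPM at mature green in WT (SD, n = 3). It rose in cr (0.36 ± 0.08, edgeR adjusted p 0.00559) and in WT (0.34 ± 0.08, edgeR adjusted p 0.00371), although with library totals alone the WT adjusted p was 0.161.

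Both genes with the Sin3-binding region of SAP30, a subunit of the Sin3 deacetylase complex, were called, in different ways. Solyc08g081310 had 9.98, 7.61 and 10.2 CPM in cr and 12.4, 13.0 and 16.4 CPM in WT at breaker. At mature green it had 17.2, 13.8 and 16.5 CPM in cr and 27.6, 22.7 and 25.6 CPM in WT. The cr libraries lay below the WT libraries at both stages, by -0.59 ± 0.15 at breaker (edgeR adjusted p 0.0127) and -0.68 ± 0.15 at mature green (edgeR adjusted p 0.0221), which made it the only member called in the same direction at both. It also fell with stage, by 0.78 on the log2 scale in cr and 0.86 in WT. The mature green call was lost without WT mature green library 1 (0.0759) or 3 (0.0836) or cr mature green library 2 (0.0992) or 3 (0.0613). The breaker call was lost without cr breaker library 2 (0.0517) and with library totals alone (0.0509). Solyc04g079930 had 23.7, 16.5 and 16.9 CPM in cr and 14.9, 14.2 and 15.1 CPM in WT at breaker. In mature green fruit the levels were 13.5, 14.6 and 13.5 CPM in cr and 16.9, 16.2 and 17.2 CPM in WT. It rose at breaker in cr (0.46 ± 0.13, edgeR adjusted p 0.0203), and cr breaker library 1 was its highest library. That call was lost without cr breaker library 1 (0.27, adjusted p 0.0698) and without cr mature green library 1 (0.0615) or 3 (0.0707), within a range of 0.0143 to 0.0762.

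Histone acetyltransferases place activating acetyl groups, and the 12 genes of this role include 3 that are complex subunits by their description or domain. At breaker against mature green 1 of the 12 was called in cr and 2 in WT, all lower at breaker. Over all genes 28.7% were called in cr and 48.3% in WT. Of the 12, 0 were called between cr and WT at breaker, by edgeR at an adjusted or an unadjusted p or by DESeq2, against 25.0% of all genes by edgeR. At mature green 0 were called by edgeR, against 4.34% of all genes, where 1 was higher at an unadjusted p under 0.05 and DESeq2 called 1 higher. The most abundant, Solyc10g045390 at 30.4 FPKM, is closest to GCN5, the catalytic subunit of the SAGA coactivator. Its group means were 64.6 ± 1.01 CPM in cr and 65.4 ± 8.25 CPM in WT at breaker, and 62.5 ± 2.04 CPM in cr and 62.8 ± 4.28 CPM in WT at mature green (SD, n = 3), and no change of it was called. Solyc07g008100, described as a histone acetyltransferase without a named domain or closest match, fell at breaker by 1.14 on the log2 scale in cr (SE 0.22, edgeR adjusted p 0.00213) and by 1.16 in WT (SE 0.22, edgeR adjusted p 0.00081). It had 4.31, 3.06 and 3.69 CPM in cr and 3.63, 4.55 and 3.15 CPM in WT at breaker. Its mature green values were 7.0, 8.34 and 9.03 CPM in cr and 7.94, 10.7 and 6.66 CPM in WT. The stages did not overlap in either genotype, and the genotypes overlapped at both stages.

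Of the 43 histone-lysine N-methyltransferase genes, 30 carry the catalytic SET domain in the deposited annotation. In cr 5 were called higher and 2 lower at breaker than at mature green, a split that was 5 and 5 by DESeq2 and 3 and 4 under upper quartile factors; edgeR called 15.2% of all genes higher there and 13.5% lower. In WT 12 were called higher and 9 lower, where 23.4% of all genes were higher and 24.9% lower, with 6 higher and 11 lower under upper quartile factors. At breaker 5 were called higher and 2 lower in cr than in WT, where 14.0% of all genes were higher and 11.0% lower. With any 1 library left out, the higher counts ran from 1 to 7 for stage in cr, from 6 to 13 for stage in WT and from 3 to 5 for genotype at breaker. At mature green 0 of the 43 were called, by edgeR or DESeq2, and 2 were higher and 1 lower at an unadjusted p under 0.05.

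Genes closest to the Polycomb enzymes that place the silencing mark on H3 lysine 27 did not move together. EZ2 (Solyc03g044380, chromosome 3, 8242372 to 8251935, plus strand, SL4.0) is closest to rice CLF. It had 18.4, 18.5 and 18.0 CPM in cr and 11.4, 11.4 and 10.5 CPM in WT at breaker. At mature green it had 29.5, 28.4 and 28.2 CPM in cr and 31.5, 28.1 and 19.8 CPM in WT. The cr breaker libraries lay together above the WT breaker libraries, and at mature green the genotypes overlapped, with WT library 3 low. EZ2 fell at breaker by 0.65 on the log2 scale in cr (SE 0.14, edgeR adjusted p 0.00362) and by 1.25 in WT (SE 0.14, edgeR adjusted p 1.23e-05), and cr exceeded WT at breaker by 0.72 ± 0.14 (edgeR adjusted p 0.00274). All 3 calls held in the 19 other settings. The difference of its stage changes, 0.61 ± 0.20, was not called (edgeR adjusted p 0.0596), though 3 of 18 other settings called it, down to 0.00432. Solyc02g093190, closest to Arabidopsis CLF, was called higher at breaker in WT (0.57 ± 0.16, edgeR adjusted p 0.0112), and Solyc01g079390, closest to EZA1, was called in no comparison. In a list of 37 other Polycomb and chromatin remodelling genes, 6 were called higher and 1 lower in cr than in WT at breaker, where 14.0% and 11.0% of all genes were. Over stage 3 were called higher and 5 lower at breaker in cr, where 15.2% and 13.5% of all genes were. In WT 8 were called higher and 11 lower, where 23.4% and 24.9% of all genes were, and upper quartile factors gave 3 higher and 12 lower.

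In the H3 lysine 9 family, 9 members are closest to SUVH and 6 to SUVR proteins. Solyc09g090810, closest to SUVH2, which in Arabidopsis binds methylated DNA and recruits RNA polymerase V, had 42.3, 34.4 and 35.7 CPM in cr and 28.5, 27.6 and 28.3 CPM in WT at breaker. In mature green fruit the levels were 41, 45.6 and 41.4 CPM in cr and 44.5, 44.1 and 40.6 CPM in WT. The WT breaker libraries were below all others, and cr breaker libraries 2 and 3 lay between them and the mature green libraries, among which cr breaker library 1 fell. At breaker cr exceeded WT by 0.41 ± 0.09 (edgeR adjusted p 0.00647), a call that held in all 19 other settings. In WT the gene fell at breaker by 0.61 on the log2 scale (SE 0.09, edgeR adjusted p 0.000139), and in cr it changed by -0.19 ± 0.09 (edgeR adjusted p 0.148). Without cr breaker library 1 the change in cr was -0.29 and was called (edgeR adjusted p 0.0268), while the difference between the stage changes, 0.43 with all libraries (edgeR adjusted p 0.0494), was 0.33 and was not called (edgeR adjusted p 0.098). Solyc09g072890, closest to SUVR2, a partner of RNA-directed DNA methylation, was also higher in cr than in WT at breaker, by 0.50 ± 0.09 (edgeR adjusted p 0.00127), while Solyc09g082050, closest to the SUVH1 of tobacco, was lower, by -0.29 ± 0.09 (edgeR adjusted p 0.0275). Solyc10g077070, also closest to the SUVH1 of tobacco and the most abundant histone-lysine methyltransferase gene at 52.4 FPKM, was called in no comparison. Solyc03g093760 rose at breaker in cr (2.84 ± 0.78, edgeR adjusted p 0.0157) and in WT (1.87 ± 0.61, edgeR adjusted p 0.0216), at a low level of 0.860 ± 0.155 CPM in cr and 2.0 ± 0.0744 CPM in WT at breaker (SD, n = 3). The rise in cr was 3.96 without cr mature green library 2, and that in WT 2.73 without WT mature green library 1. Its calls were lost without cr mature green library 1 (0.0601) or 3 (0.07) in cr and without WT mature green library 3 (0.0545) or WT breaker library 1 (0.0546) or 2 (0.0522) in WT. It is 1 of 3 members that match SUVH6, so reads may be split among them.

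For the marks of active genes, the members closest to ATX proteins and ATXR2, ATXR3, ATXR4 and ATXR7 numbered 8, of which 2 were called higher and 1 lower at breaker in WT by edgeR. Over all genes 23.4% were called higher and 24.9% lower there. The 8 closest to ASHH and ASHR proteins had 2 called at breaker in WT, both higher, among them Solyc07g008460, closest to ASHH1, at 25.6 ± 3.66 CPM in cr and 29.5 ± 1.87 CPM in WT at breaker and 22 ± 1.11 CPM in cr and 20.1 ± 1.14 CPM in WT at mature green (SD, n = 3). Solyc11g005730, closest to ATXR5, a monomethylase of H3 lysine 27 active in replicating cells, had 9.93, 11 and 11.8 CPM at breaker and 5.48, 7.79 and 6.36 CPM at mature green in cr, without overlap. It was called there (0.73 ± 0.16, edgeR adjusted p 0.00503) in this and all 19 other settings, and in WT the change was 0.40 ± 0.16 (edgeR adjusted p 0.0577), called only without WT mature green library 1 (0.0497), WT breaker library 1 (0.041) or cr mature green library 2 (0.0467).

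Some of the large changes in this role came from genes with no SET domain in the annotation, whose description is their only tie to the enzyme. Solyc09g009220, described as SETD1B-like and holding only a domain of unknown function, had 0.811, 1.29 and 1.25 CPM in cr and 3.87, 4.55 and 2.97 CPM in WT at breaker. Its mature green values were 0.685, 0.298 and 0.534 CPM in cr and 1.08, 0.736 and 0.655 CPM in WT. The WT breaker libraries were above all others, and cr was lower than WT there by -1.77 ± 0.34 (edgeR adjusted p 0.0023), which held in all 19 other settings. It rose at breaker in WT (2.19 ± 0.35, edgeR adjusted p 0.000195), and in cr (1.13 ± 0.38, edgeR adjusted p 0.0425) in a call that 7 of 19 other settings kept. The loss of WT mature green library 2 (0.0537), WT breaker library 1 (0.0593) or 2 (0.0535), cr mature green library 2 (0.146) or 3 (0.098), or cr breaker library 2 or 3 (0.121 each) ended the call in cr.

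Solyc04g072310, described as SETD1B-A, had 0 counts in the 3 WT breaker libraries, 21 in the cr breaker libraries, 82 in the cr mature green libraries and 81 in the WT mature green libraries. Set against a floor of 3 counts over the WT breaker group, it was at least 24.0-fold lower at breaker than at mature green in WT, and at least 6.30-fold higher in cr than in WT at breaker. Of the 21 counts 18 came from cr breaker library 1, and without that library the cr breaker group had 3 counts and no call (edgeR adjusted p 0.0941, against 0.0256 with all libraries). The call was also lost without WT breaker library 1 (0.0586), 2 (0.0618) or 3 (0.0528). Its stage change in cr was not called with all libraries (edgeR adjusted p 0.0664), and without cr breaker library 1 it was -3.91 (edgeR adjusted p 0.00103). Solyc11g013020, described as a histone-lysine N-methyltransferase with neither a domain nor a closest match named, had 51.0, 39.1 and 36.5 CPM in cr and 32.0, 33.7 and 24.1 CPM in WT at breaker. There cr exceeded WT by 0.49 ± 0.14 (edgeR adjusted p 0.0209). This call was lost without cr breaker library 1 (0.0974), its highest library, or WT breaker library 3 (0.07), and in a fit of only the groups compared (0.0703).

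**Figure D5:**
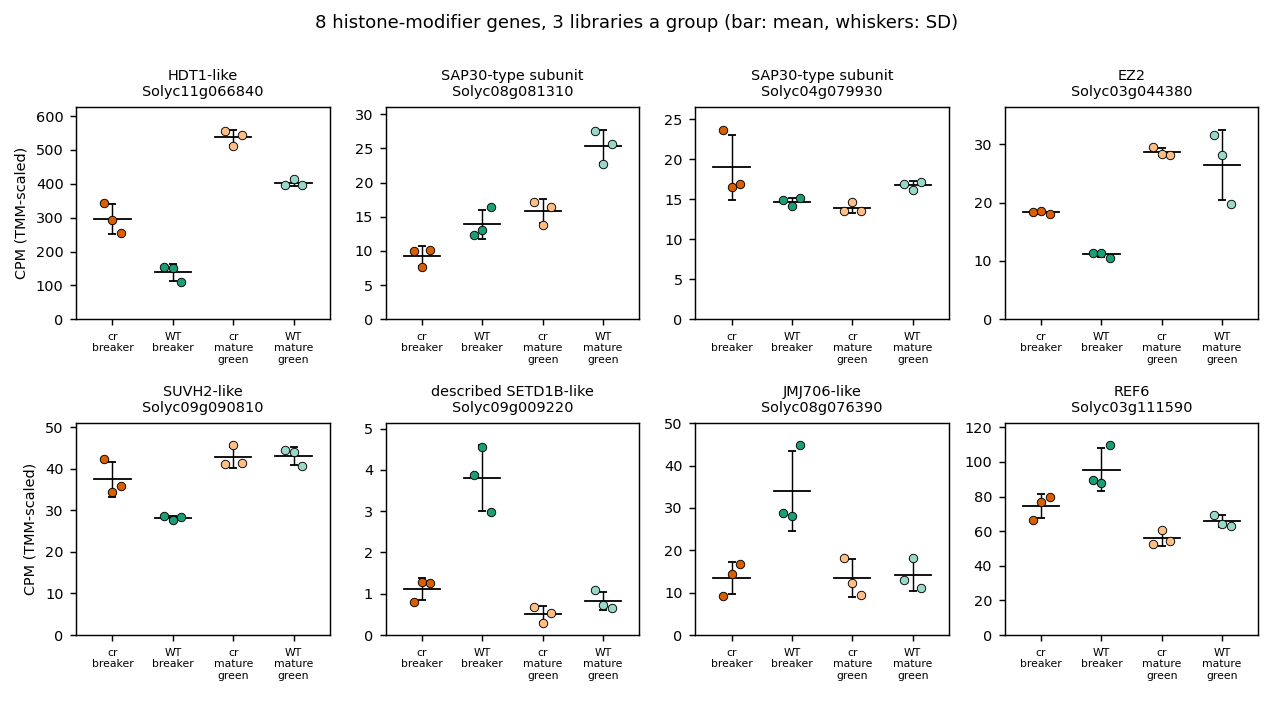
CPM of 8 genes of histone modification in each library, by group (points, 3 libraries a group; bar, mean; whiskers, SD), with vertical axes starting at 0. HDT1-like, EZ2 and SUVH2-like genes are higher in all cr than in all WT breaker libraries, and the SETD1B-like, JMJ706-like and REF6 genes lower, with breaker means of 13.5 CPM in cr and 33.9 CPM in WT for the JMJ706-like gene.

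Of the 18 genes described as lysine-specific demethylases, enzymes that take methyl groups off histones, 12 carry the catalytic JmjC domain in the deposited annotation. In cr 4 of the 18 were called higher and 0 lower at breaker than at mature green, where 15.2% of all genes were called higher and 13.5% lower. In WT 6 were called higher and 1 lower, where 23.4% of all genes were called higher and 24.9% lower. In cr an unadjusted p under 0.05 in edgeR gave 7 higher and 0 lower, and DESeq2 gave 4 and 0. With library totals alone the counts were 1 higher and 0 lower in cr, and 3 higher and 1 lower in WT, and with any 1 library left out the higher count ran from 1 to 5 in cr and from 2 to 8 in WT. Between genotypes 2 were called at breaker, both lower in cr than in WT, where 11.0% of all genes were lower, although library totals alone gave 2 higher and 1 lower.

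Solyc08g076390 (chromosome 8, 58512201 to 58518472, plus strand, SL4.0), closest to rice JMJ706, which removes methyl groups from H3 lysine 9, had 9.27, 14.5 and 16.7 CPM in cr and 28.9, 28.1 and 44.8 CPM in WT at breaker. At mature green it had 18.3, 12.3 and 9.51 CPM in cr and 13.1, 18.3 and 11.1 CPM in WT. The WT breaker libraries were above all others, which overlapped among themselves. It rose in WT (1.26 ± 0.28, edgeR adjusted p 0.00232), changed by 0.01 ± 0.28 in cr (edgeR adjusted p 0.979), and was lower in cr than in WT at breaker by -1.33 ± 0.28 (edgeR adjusted p 0.00409), the calls holding in all 19 other settings. The difference of stage changes, -1.25 ± 0.40, had an edgeR adjusted p of 0.0568, and 5 of 18 other settings called it, down to 0.0161. The other JMJ706-like gene, Solyc03g097090, averaged 1.81 ± 0.0770 CPM in cr and 2.09 ± 0.889 CPM in WT at breaker (SD, n = 3), and its rise in WT (1.10 ± 0.35, edgeR adjusted p 0.0201) was lost without WT mature green library 2 (0.0763) or WT breaker library 3 (0.107).

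Solyc03g111590, described as REF6, the demethylase of the Polycomb mark on H3 lysine 27, had 66.6, 77.1 and 79.9 CPM in cr and 89.3, 87.8 and 109.6 CPM in WT at breaker. In mature green fruit the levels were 52.6, 60.6 and 54.5 CPM in cr and 69.6, 64.4 and 63.0 CPM in WT. Within each stage all cr libraries were below all WT libraries, and within each genotype all breaker libraries were above all mature green libraries. It rose in cr (0.41 ± 0.11, edgeR adjusted p 0.0109) and in WT (0.54 ± 0.11, edgeR adjusted p 0.000942), and was lower in cr than in WT at breaker (-0.36 ± 0.11, edgeR adjusted p 0.0247). The last call was lost without cr breaker library 1 (0.0982) or WT breaker library 3 (0.0915). It was also lost with library totals alone (0.148), with upper quartile factors (0.0521) and in a fit of only the groups compared (0.061). The rise in cr was lost without cr breaker library 3 (0.0517) and with library totals alone (0.0521).

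Among the 9 genes closest to JMJ25, an H3 lysine 9 demethylase, 1 was called higher in cr and 1 higher and 1 lower in WT at breaker. Over all genes 15.2% were called higher in cr, and 23.4% higher and 24.9% lower in WT. Solyc02g082400, the most abundant lysine demethylase gene at 22.1 FPKM, passed narrowly in WT (0.26 ± 0.10, edgeR adjusted p 0.0495), with 75.2 ± 9.89 CPM in cr and 75.7 ± 5.69 CPM in WT at breaker and 64.7 ± 3.91 CPM in cr and 63.3 ± 2.51 CPM in WT at mature green (SD, n = 3). Only 5 of 19 other settings called it. In cr its change was 0.22 (edgeR adjusted p 0.124), and without cr breaker library 1 it was 0.29 and was called (edgeR adjusted p 0.0435). Solyc02g079300 rose in cr (0.47 ± 0.13, edgeR adjusted p 0.0197). That call was lost without cr mature green library 3 (0.0772) or cr breaker library 2 (0.0808) or 3 (0.0851), and with library totals alone (0.0535). Solyc01g006680, closest to JMJ30, an evening-phased demethylase of the Arabidopsis clock, had 31.8, 53.4 and 41.5 CPM at breaker and 26.8, 21.9 and 22.8 CPM at mature green in cr, without overlap (0.83 ± 0.21, edgeR adjusted p 0.00944). In WT it had 29.2, 23.5 and 39.4 CPM at breaker and 23.1, 28.6 and 32.1 CPM at mature green, which overlapped, and its call in cr was lost without cr breaker library 2 (0.0508), its highest library. At breaker cr and WT differed by 0.46 (edgeR adjusted p 0.121), a difference called without cr breaker library 1 (0.63, edgeR adjusted p 0.0474), without WT breaker library 3 (0.0319) and with library totals alone (0.0497). The labels give no time of day of sampling.

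Per length of transcript, the median member had 10.6 FPKM and the median gene tested 12.4 FPKM. By role the medians were 8.61 FPKM for DNA demethylases, 11.5 for DNA methyltransferases, 16.5 for histone deacetylase genes, 16 for acetyltransferases, 8.83 for lysine methyltransferases and 13.7 for lysine demethylases. Neighbouring members of like sequence, such as the JMJ25-like Solyc08g065800, Solyc08g065810 and Solyc08g065830 and the ELF6-like Solyc04g028560 and Solyc04g028580, may share reads, and their values are uncertain to that extent.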

How the data were processed

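RNA was extracted from fruit pericarp with Trizol and sequenced in 12 libraries, per the labels' protocols. Per the submitters' processing notes edgeR 3.22.5, DESeq2 1.20.0, featureCounts 1.5.0-p3, HISAT2 2.0.5 and fastp 0.23.1 were used; their settings and strand handling are not stated there. The deposited table holds raw read counts per gene, used as they stand for every test. The deposited FPKM values, which were reached from those counts by gene length and a factor per library, served only to compare levels between genes. Coordinates are those of the deposited annotation, whose chromosome names give the build as SL4.0, and gene names other than DML2 come from its descriptions and closest matches.

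Genes were kept by filterByExpr (minimum count 10, minimum total 15), which left 19664 genes with 99.9486% of counts. All 12 libraries entered 1 edgeR 4.0.16 quasi-likelihood fit in R 4.3.3 with TMM factors and a coefficient per group, with Benjamini-Hochberg adjustment over all genes at 0.05. The fit was also run on simulated counts with known changes. Those counts held no divergent library, so that run cannot vouch for the calls in these data. The SE of a fold change is the fold change over the square root of F. The 5 comparisons were cr against WT at each stage, breaker against mature green in each genotype, and the difference of stage changes. Alternatives were DESeq2 1.42.0, other scalings, filters and fits, a minimum fold, the replicate number as a block, and each library left out. Named were all DNA demethylases and DNA methyltransferases, and in each other role the most abundant gene and up to 3 called genes of largest change without overlap per comparison; other genes were named after their values were seen, to fill in a subfamily or neighbour. The members and lists were chosen with earlier results of these data known. Counts of no 2 libraries of the same group agreed within sampling noise (chi-square per degree of freedom from 9.57 to 36.5).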

Additional observations from a re-analysis of the deposited data

Results flagged for a closer look

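The stage change of 8 members differed between cr and WT by the test of the difference itself, each with the more positive log2 change in cr. In the DNA methyltransferases the difference was 1.40 for Solyc01g006100 (edgeR adjusted p 0.0101), 1.06 for Solyc08g005400 (edgeR adjusted p 0.00415) and 0.71 for Solyc10g078190 (edgeR adjusted p 0.0156), and these 3 were called in all 18 other settings that give the difference. It was 0.59 for Solyc04g005250 (edgeR adjusted p 0.0398), called in 9 of the 18, with p from 0.0167 to 0.0981; it was kept without WT mature green library 1, WT breaker library 3, cr mature green library 2 or cr breaker library 3 and lost without any other single library.

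In the histone deacetylase genes it was 0.68 for Solyc11g066840 (edgeR adjusted p 0.0325; called in 10 of 18, from 0.00746 to 0.0762) and 0.64 for Solyc04g079930 (edgeR adjusted p 0.039; called in 7 of 18, from 0.0253 to 0.0848). With single libraries left out, Solyc11g066840 was kept without any 1 WT breaker library or cr breaker library 3, and Solyc04g079930 without cr breaker library 2 or 3, and not otherwise. In the histone-lysine N-methyltransferases it was 0.64 for Solyc11g013020 (edgeR adjusted p 0.0499; called in 7 of 18, from 0.0269 to 0.103) and 0.43 for Solyc09g090810 (edgeR adjusted p 0.0494; called in 5 of 18, from 0.0326 to 0.114). With single libraries left out, the first was kept without WT breaker library 2 or cr breaker library 3, and the second without cr breaker library 2.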

How the results depend on the processing

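No called result of a single named gene changed direction, but the split of member counts moved with the scaling. With library totals alone the median log2 stage change of the members in WT went from 0.10 to -0.10. DESeq2 called 2 members higher in cr than in WT at mature green and 1 lower in the difference of stage changes, where keeping every gene with a count also gave 1 lower; a fit of only the groups compared gave 1 higher at mature green and has no value for the difference. Upper quartile factors gave 3 lower at breaker in cr than in WT and 11 higher over stage in WT; library totals alone gave 2 lower at breaker, 8 higher over stage in WT and 5 in cr, and moved the median of all genes by -0.19 over stage in WT and 0.13 at breaker. A minimum absolute log2 fold change of 1 left 0 lower at mature green, 2 higher and 2 lower at breaker, 5 higher and 7 lower over stage in WT, 3 higher and 1 lower in cr, and 2 higher in the difference. Deviations from the group means correlated weakly between libraries of the same replicate number (from -0.152 to 0.0799). With 3 libraries a group this cannot exclude that they share a plant or harvest, which the labels do not state. With replicate numbers as a block 4 members were higher in the difference. Under that block 7 of 61 called results of named genes were lost, that of DML2 at mature green among them (-0.94, edgeR adjusted p 0.0706).

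With 1 library left out, counts ran from 0 to 1 higher and 0 to 4 lower at mature green, 6 to 10 higher and 3 to 5 lower at breaker, 11 to 25 higher and 16 to 24 lower over stage in WT, 5 to 14 higher and 6 to 10 lower in cr, and 3 to 8 higher and 0 to 1 lower in the difference. The higher count in WT was 11 without WT mature green library 2 or WT breaker library 3, 12 without WT mature green library 3 and 13 without WT breaker library 2; in cr it was 5 without cr mature green library 3 and 7 without cr mature green library 1 or cr breaker library 2. The lower count at mature green was 0 without WT mature green library 1 or 3 or cr mature green library 2 or 3, and 1 without cr mature green library 1. Of the 61 called results of named genes, 35 were kept under every alternative but the minimum fold. All-gene calls at mature green were 853, against 1452 by DESeq2.

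With 3 libraries a group, the smaller changes at mature green rest on few libraries, and members of low count have wide errors. The strand setting is not given, so reads of overlapping genes cannot be told apart: Solyc06g083760 held 2200 counts and its partner on the other strand, Solyc06g083770, 5077.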
